A study of Mus musculus with 12 samples.

Results

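Type I interferon effector genes are the genes whose products carry out the antiviral state that interferon alpha and beta switch on in a cell. A list of 37 such genes was followed here in hippocampal CD11b+ cells of the mouse, out of 18193 genes with a probe set of their own on the array. Of the 37 genes, 34 had at least 1 probe set that names no other gene, and each was read from the brightest of these on average. Ifi44 and Ly6a had none in the annotation used, and Isg15, the ubiquitin-like modifier, shares its probe set with another symbol, so these genes have no value here. The cells came from 3 mice in each of 4 groups, female C57BL/6 and Balb/c mice that received either sham treatment or 10 Gy of X-rays, given once to the forebrain through a field of 1 cm, under ketamine and xylazine, with the eyes, nose and cerebellum shielded. The mice were 6.5 weeks old at the start and 10.5 weeks old when their microglia were taken, 1 month after treatment. Each Affymetrix array held RNA from 5000 to 10000 sorted cells of 1 animal, amplified in 2 rounds before biotin labelling. The labels give no substrain of C57BL/6, and the sort on CD11b can hold other myeloid cells beside microglia. The comparisons ask how irradiation changed these genes in each strain, whether the change differed between strains, and how far the strains differed with and without irradiation.

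Type I interferons bind a receptor made of Ifnar1 and Ifnar2 chains, whose kinases Jak1 and Tyk2 activate transcription factors. With Irf9 these form a complex that binds the interferon-stimulated response element, a short repeat in the promoters of the target genes. The products sense and degrade viral RNA, block its translation, remodel membranes and limit nucleotides, and Usp18 and others feed back on the receptor. Microglia, the macrophages of the brain parenchyma, are among the brain cells that show this programme in infection, ageing and neurodegeneration.

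The promoters of 3 members are shown because these genes were called higher after irradiation in both strains and hold the core of the response element. The sequences come from RefSeq on build GRCm38.p6, the C57BL/6J genome, and cover the 250 bases before the annotated start, 5′ to 3′ in the direction of the gene. Capitals mark each match to the core, GAAA followed by any 2 bases and a second GAAA, on either strand.
Ifit1 promoter, chr19:34640639-34640888, + strand: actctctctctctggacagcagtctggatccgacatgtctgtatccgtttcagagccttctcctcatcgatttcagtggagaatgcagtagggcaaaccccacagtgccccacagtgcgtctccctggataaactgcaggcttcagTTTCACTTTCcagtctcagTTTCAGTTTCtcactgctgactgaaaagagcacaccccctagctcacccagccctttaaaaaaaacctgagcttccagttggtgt
Ifit3 promoter, chr19:34583279-34583528, + strand: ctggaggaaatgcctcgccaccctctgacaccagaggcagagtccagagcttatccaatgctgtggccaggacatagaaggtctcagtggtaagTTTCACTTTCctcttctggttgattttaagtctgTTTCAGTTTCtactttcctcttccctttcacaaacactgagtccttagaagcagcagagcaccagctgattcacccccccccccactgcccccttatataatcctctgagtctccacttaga
Oas1a promoter, chr5:120907526-120907775, - strand: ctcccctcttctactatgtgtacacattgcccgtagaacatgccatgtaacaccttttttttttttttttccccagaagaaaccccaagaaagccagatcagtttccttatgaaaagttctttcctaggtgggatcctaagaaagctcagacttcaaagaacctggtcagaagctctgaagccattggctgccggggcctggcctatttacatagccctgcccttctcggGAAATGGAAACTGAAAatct
Ifit1 and Ifit3 each had 2 matches, both on the opposite strand, the nearest 75 and 112 bases before the start. In Oas1a the 2 matches overlapped and lay 4 and 10 bases before the start. The table held promoters of 27 of the 37 genes, and 11 of these 27 (40.7%) had the core in this window, against 3.46% of all 27025 genes in the table. A longer core, with CT after the second GAAA, was found in 6 of the 27 (22.2%) and in 0.255% of all genes. Of the 11 genes called higher in both strains 8 were in the table and 3 held the core, so many of the genes that rose had no match to these letters in this window. Bst2, Ddx60, Rsad2, Slfn8 and Lgals9 were further tested members with a match, and Oas3, Slfn5 and Isg15 had a match but no tested value. Several members lie next to each other in that assembly, with no coding gene between Rsad2 and Cmpk2, Ifit2 and Ifit3, Oas2 and Oas3, Oasl1 and Oasl2, Slfn2 and Slfn8, or Ifi44 and Ifi44l.

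All values are the authors' log2 expression values, which run from 2.23, the bottom of the scale, to 16.2 and have the same distribution on every array. Genes above 5 on at least 3 arrays were tested, which kept 9120 genes and 27 of the 37 members. The 13 measured microglial markers, P2ry12 and Tmem119 among them, all passed this filter. Their summed log2 level was 17.61 to 17.64 in C57BL/6 sham and 17.47 to 17.58 in Balb/c irradiated arrays. Passing does not set microglia apart, since all 6 measured oligodendrocyte and all 9 astrocyte markers passed too. Group means were 13.94 to 14.18 for P2ry12, 15.02 to 15.31 for the oligodendrocyte gene Mbp and 13.14 to 14.16 for the astrocyte gene Gja1. Of the microglial markers, Trem2 was called lower after irradiation in Balb/c, at -1.02 ± 0.20 (limma, adjusted p = 0.0160). Fcrls was called lower in sham Balb/c than in sham C57BL/6, at -1.26 ± 0.12 (adjusted p = 5.20e-05). Mean correlations within a group ran from 0.966, for C57BL/6 irradiated replicate 3, to 0.986, with replicate 2 of that group at 0.968. In the Actb and Gapdh control probe sets the 3' signal exceeded the 5' signal most in Balb/c irradiated replicate 2, which marks shorter RNA, at 4.82 against 3.50 to 3.81 in the sham arrays. These 2 arrays are here called the arrays that stand apart, and the calls lost without both are named with the counts. The 18S ribosomal RNA signal was 11.93 to 12.32 in all sham arrays and 10.48 to 11.77 in all irradiated ones, so it moved with irradiation in both strains, and its part in the results was not tested.

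Many of these genes were higher 1 month after irradiation in each strain. In C57BL/6 mice 12 of the 27 tested members were called higher and none lower, against 2.21% and 1.46% of all 9120 genes. In Balb/c mice 16 of 27 were called higher and none lower, against 3.26% and 2.89% of all genes. The members had a median log2 difference of 1.08 in C57BL/6 and 1.03 in Balb/c, while the median over all genes tested was -0.04 in both. Called higher in both strains were 11 members, from Ifit1, with a mean difference of 2.63 over the strains, down to Xaf1 at 0.81. A call means an adjusted p under 0.05 in limma, with Benjamini-Hochberg adjustment over all genes tested, and every difference below is a log2 difference with its standard error from that fit. Arrays of the irradiated group lay above all sham arrays for 17 of the 27 members in C57BL/6 and 19 in Balb/c, against 11.4% and 12.8% of all genes.

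**Figure D1:**
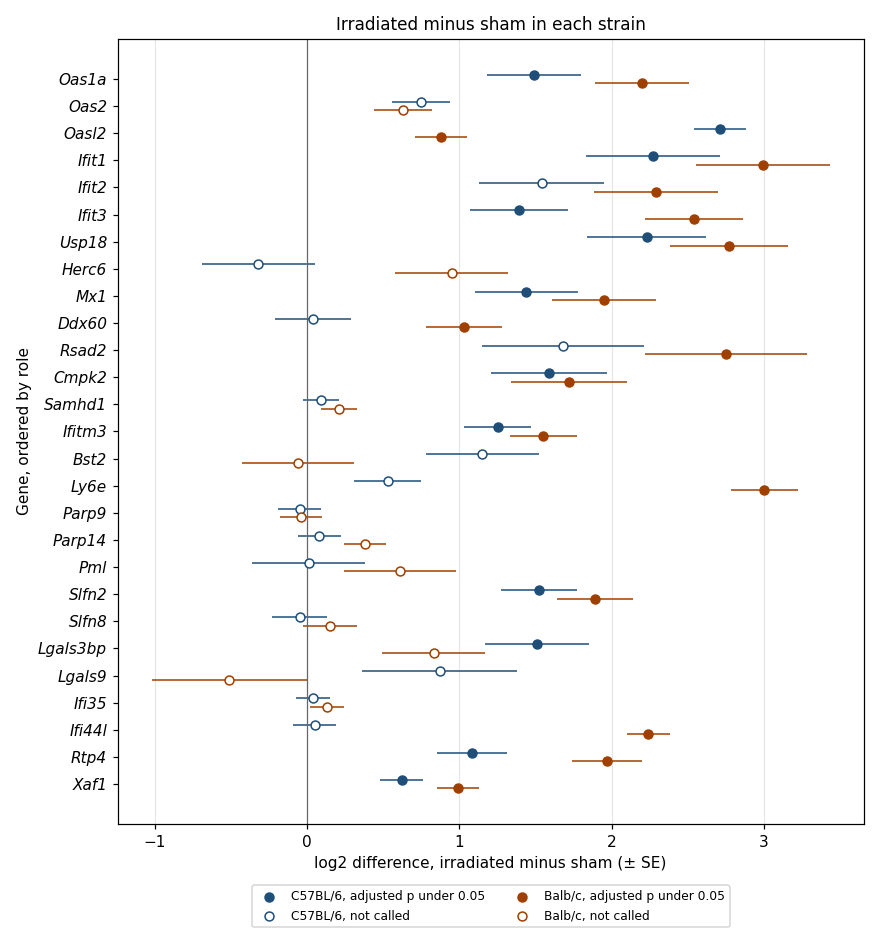
Log2 difference between irradiated and sham arrays (horizontal axis, points with SE bars) for the 27 tested interferon effector genes, in C57BL/6 (blue) and Balb/c (brown), each from 3 against 3 arrays. Filled points passed an adjusted p of 0.05, and most points of both strains lie right of 0, with Ly6e and Ifi44l far right in Balb/c and near 0.53 and 0.05 in C57BL/6.

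The filter shapes these counts. Oasl2, Ifit1 and Lgals3bp passed it only through irradiated arrays and so had to differ. Without these 3 genes, 9 of 24 members were called higher in C57BL/6 and 14 of 24 in Balb/c. The C57BL/6 calls also leaned on single arrays. The count of 12 fell to 2, Oasl2 and Slfn2, without C57BL/6 irradiated replicate 3. It was 5 to 7 without each of C57BL/6 sham replicates 1, 2 and 3, irradiated replicates 1 and 2, Balb/c sham replicate 3 and Balb/c irradiated replicate 3. Without both arrays that stand apart it was 3, Oasl2, Ifitm3 and Lgals3bp. The adjusted p was then 0.0572 for Slfn2, 0.0693 for Usp18 and Rtp4, 0.0699 for Ifit1, 0.0706 for Mx1, 0.111 for Oas1a, 0.120 for Cmpk2, 0.162 for Xaf1 and 0.163 for Ifit3. A fit of the 6 C57BL/6 arrays alone called 6 members, and a fit of all 18193 genes without the filter called 2. The median difference in C57BL/6 ran from 0.91 to 1.17 over fits that each dropped 1 array. In Balb/c the count stayed between 12 and 17 over such fits, but was 10 with the 3' to 5' excess as a covariate. Under that covariate the Balb/c adjusted p was 0.0588 for Ifit1, 0.0914 for Oasl2, 0.108 for Mx1, 0.110 for Ifit2, 0.138 for Ddx60, 0.155 for Rsad2 and 0.236 for Cmpk2, all without a call. Without both arrays that stand apart the Balb/c calls of Rsad2 (adjusted p = 0.0522), Oasl2 (adjusted p = 0.0531), Ddx60 (adjusted p = 0.0931) and Cmpk2 (adjusted p = 0.0968) were lost as well. Without the filter those of Ifit2 (adjusted p = 0.0562), Rsad2 (adjusted p = 0.0676), Cmpk2 (adjusted p = 0.10) and Ddx60 (adjusted p = 0.116) were lost.

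The oligoadenylate synthetases sense double-stranded RNA and make the short oligoadenylates that activate RNase L. Among them Oas1a and the related Oasl2 were called higher in both strains, Oasl2 in Balb/c only within the dim range. Oas1a stood at 7.44, 7.44 and 6.61 in C57BL/6 sham and 8.43, 8.20 and 9.33 in C57BL/6 irradiated arrays. Its Balb/c values were 6.00, 6.35 and 5.84 in sham and 8.61, 8.07 and 8.11 in irradiated arrays. Every irradiated array lay above every sham array of its strain, and the Balb/c sham arrays were the lowest of all. The difference was 1.49 ± 0.31 (adjusted p = 0.0297) in C57BL/6 and 2.20 ± 0.31 (adjusted p = 0.00329) in Balb/c. Leaving out each array in turn ended the C57BL/6 call in 4 cases, and adjusted p reached 0.0926 with C57BL/6 irradiated replicate 3 left out. Oasl2, a family member that carries ubiquitin-like domains, was at 3.15, 3.53 and 2.74 in C57BL/6 sham and 5.92, 5.66 and 5.96 in C57BL/6 irradiated arrays. Its Balb/c values were 2.23, 2.23 and 2.23 in sham arrays, the bottom of the scale, and 3.11, 3.11 and 3.11 in irradiated arrays. It thus passed 5 in the C57BL/6 irradiated arrays and in no other group. The difference was 2.71 ± 0.17 (adjusted p = 4.03e-05) in C57BL/6 and 0.88 ± 0.17 (adjusted p = 0.0147) in Balb/c, the latter within the dim range, where a floor at 4 removes it, and lost without Balb/c sham replicate 1 or 2 (adjusted p as high as 0.0536). Oas2 missed the threshold in both strains, at 0.75 ± 0.19 (adjusted p = 0.0629) in C57BL/6 and 0.63 ± 0.19 (adjusted p = 0.0792) in Balb/c, although its irradiated arrays lay above its sham arrays. Oas3 and Oasl1 were at or near the bottom of the scale, with group means of 2.23 in all groups for Oas3 and 2.25 to 2.59 for Oasl1.

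All 3 IFIT genes, whose products bind viral RNA with foreign ends and stop its translation, were called higher in Balb/c, and Ifit1 and Ifit3 in C57BL/6. Ifit1 values were 4.74, 3.97 and 4.09 in C57BL/6 sham and 6.32, 7.01 and 6.28 in C57BL/6 irradiated arrays. They were 4.64, 2.98 and 3.58 in Balb/c sham and 5.94, 7.22 and 7.03 in Balb/c irradiated arrays. No sham array of either strain reached 5, and all irradiated arrays passed it. The difference was 2.27 ± 0.44 (adjusted p = 0.0231) in C57BL/6 and 2.99 ± 0.44 (adjusted p = 0.00391) in Balb/c, and the C57BL/6 call was lost without each of 4 arrays in turn (adjusted p as high as 0.0684 when C57BL/6 sham replicate 2 was left out). Ifit2 values were 8.82, 7.42 and 7.67 in C57BL/6 sham and 9.22, 9.47 and 9.84 in irradiated arrays, where C57BL/6 sham replicate 1 came close to the irradiated ones. In Balb/c they were 7.47, 7.15 and 7.58 in sham and 8.97, 10.54 and 9.58 in irradiated arrays, with no overlap. Ifit2 was called in Balb/c at 2.29 ± 0.41 (adjusted p = 0.0112), and was at 1.54 ± 0.41 (adjusted p = 0.0685) in C57BL/6, under the threshold. The Balb/c calls of Ifit1 and Ifit2 did not hold with the 3' to 5' covariate. Ifit3 read 8.85, 8.90 and 8.24 in C57BL/6 sham and 9.73, 9.76 and 10.66 in C57BL/6 irradiated arrays. Balb/c arrays read 7.20, 6.10 and 6.60 after sham treatment and 8.87, 9.43 and 9.23 after irradiation, so that the irradiated Balb/c arrays overlapped the upper end of the C57BL/6 sham arrays. Its difference was 1.39 ± 0.32 (adjusted p = 0.0436) in C57BL/6, lost without each of 10 arrays in turn (adjusted p as high as 0.153 when C57BL/6 irradiated replicate 3 was left out), and 2.54 ± 0.32 (adjusted p = 0.00219) in Balb/c.

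In the ISG15 system, Usp18, the protease that removes ISG15 from proteins and dampens receptor signalling, rose in both strains. Its values were 5.73, 5.43 and 4.49 in C57BL/6 sham and 6.95, 7.32 and 8.07 in C57BL/6 irradiated arrays. The Balb/c arrays stood at 4.93, 4.75 and 3.88 after sham treatment and 6.96, 7.60 and 7.30 after irradiation. Irradiated arrays of the strains overlapped each other, and none overlapped a sham array. The difference was 2.23 ± 0.39 (adjusted p = 0.0133) in C57BL/6, lost without C57BL/6 irradiated replicate 3 (adjusted p = 0.0543), and 2.77 ± 0.39 (adjusted p = 0.00326) in Balb/c. Herc6, the main ISG15 ligase of the mouse, had a difference of -0.32 ± 0.37 (adjusted p = 0.646) in C57BL/6 and 0.95 ± 0.37 (adjusted p = 0.157) in Balb/c, neither of them called. Mx1, a dynamin-like GTPase that traps viral particles and is defective as a protein in most laboratory strains, rose in both as a transcript. It read 5.66, 5.46 and 4.78 in C57BL/6 sham and 6.51, 6.68 and 7.02 in C57BL/6 irradiated arrays. Balb/c sham arrays read 4.45, 4.97 and 4.42 and Balb/c irradiated arrays 6.00, 7.34 and 6.34, again with no overlap between treatments. The difference was 1.44 ± 0.34 (adjusted p = 0.0437) in C57BL/6, lost without each of 10 arrays in turn (adjusted p as high as 0.158 when C57BL/6 irradiated replicate 3 was left out), and 1.95 ± 0.34 (adjusted p = 0.00916) in Balb/c, not held with the 3' to 5' covariate. Mx2 stayed near the bottom of the scale, with group means of 2.30 to 2.32.

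The enzymes that act on nucleotides gave a mixed picture. Rsad2, known as viperin, which makes a chain-terminating nucleotide, and its neighbour Cmpk2, a mitochondrial nucleotide kinase, were high in irradiated arrays. The dNTP hydrolase Samhd1 was called in neither strain. Rsad2 stood at 7.33, 5.99 and 7.14 in C57BL/6 sham and 7.77, 8.70 and 9.04 in C57BL/6 irradiated arrays. The Balb/c values were 6.34, 5.0 and 5.77 in sham and 7.49, 8.61 and 9.27 in irradiated arrays. Groups of 1 strain did not overlap, but replicates differed by more than 1 within each of the 4 groups. Rsad2 was called in Balb/c, at 2.75 ± 0.53 (adjusted p = 0.0142), a call lost without Balb/c sham replicate 2 or Balb/c irradiated replicate 3 (adjusted p as high as 0.0613), and was at 1.68 ± 0.53 (adjusted p = 0.109) in C57BL/6. Its second probe set above the filter moved alike, by 1.84 in C57BL/6 and 2.18 in Balb/c. Cmpk2 read 5.01, 6.06 and 6.34 in C57BL/6 sham and 7.07, 7.70 and 7.41 in C57BL/6 irradiated arrays. Balb/c arrays read 5.09, 4.42 and 4.80 after sham treatment and 5.86, 7.16 and 6.43 after irradiation. Irradiated arrays lay above sham arrays in each strain. The difference was 1.59 ± 0.38 (adjusted p = 0.0486) in C57BL/6 and 1.72 ± 0.38 (adjusted p = 0.0276) in Balb/c, and these calls were lost without each of 9 and 5 arrays in turn (adjusted p as high as 0.148 and 0.101). Samhd1 was at 0.09 ± 0.12 (adjusted p = 0.694) in C57BL/6 and 0.21 ± 0.12 (adjusted p = 0.346) in Balb/c, with 95% intervals of -0.18 to 0.37 and -0.06 to 0.49. Isg20, an exonuclease, was at the bottom of the scale except on C57BL/6 irradiated replicate 3, at 3.22. Of the helicases, Ddx60 was called in Balb/c at 1.03 ± 0.25 (adjusted p = 0.0379), lost without each of 7 arrays in turn (adjusted p as high as 0.110 when Balb/c sham replicate 1 was left out), and stood at 0.04 ± 0.25 (adjusted p = 0.942) in C57BL/6. Dhx58, which modulates RNA sensing by the RIG-I-like receptors, stayed under the filter, with group means of 3.05 to 3.65.

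**Figure D2:**
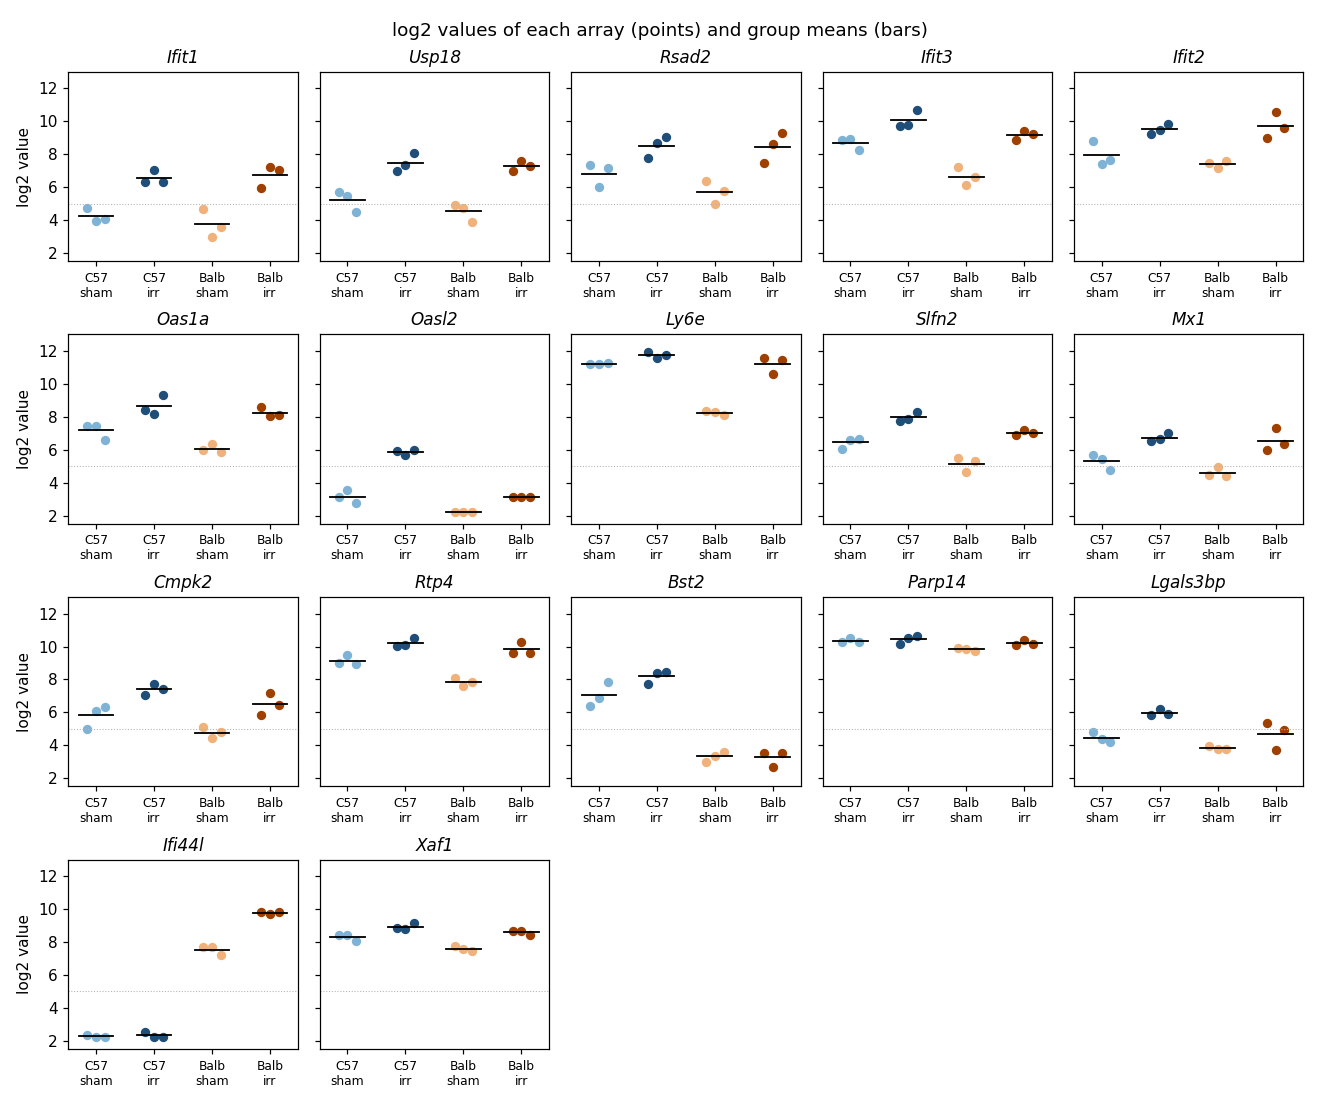
Log2 values of each array (points, vertical axis) and group means (bars) for the 17 members described array by array, in C57BL/6 and Balb/c sham and irradiated (irr) mice, 3 arrays a group. The dotted line marks 5, the filter on dim probe sets. In most panels the irradiated arrays lie above the sham arrays of their strain, while Bst2 is high in C57BL/6 alone and Ifi44l in Balb/c alone.

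Of 3 tested genes for membrane and surface proteins, Ifitm3 was called in both strains, Ly6e in Balb/c and Bst2 in neither. Ifitm3, which blocks viral fusion in endosomes, rose in both, by 1.25 ± 0.22 in C57BL/6 (adjusted p = 0.0159, and 0.0701 without C57BL/6 irradiated replicate 3) and 1.55 ± 0.22 (adjusted p = 0.00346) in Balb/c. Ly6e, a lipid-anchored surface protein that restricts the entry of coronaviruses, was at 11.19, 11.23 and 11.29 in C57BL/6 sham and 11.91, 11.60 and 11.78 in C57BL/6 irradiated arrays. Sham Balb/c arrays were at 8.33, 8.28 and 8.08 and irradiated ones at 11.58, 10.61 and 11.48. The Balb/c sham arrays were far below all others, and the irradiated Balb/c arrays lay around the level of the C57BL/6 sham arrays. Ly6e rose in Balb/c by 3.0 ± 0.22 (adjusted p = 4.64e-05) and stood at 0.53 ± 0.22 (adjusted p = 0.193) in C57BL/6, with a 95% interval of 0.05 to 1.01. A second Ly6e probe set above the filter gave 2.82 in Balb/c and 0.26 in C57BL/6. Bst2, also called tetherin, which holds budding virions at the cell surface, read 6.41, 6.86 and 7.87 in C57BL/6 sham and 7.71, 8.42 and 8.45 in C57BL/6 irradiated arrays. Its Balb/c values were 3.0, 3.35 and 3.61 in sham and 3.56, 2.70 and 3.54 in irradiated arrays, all under the filter. The difference after irradiation was not called, at 1.15 ± 0.37 (adjusted p = 0.116) in C57BL/6 and -0.06 ± 0.37 (adjusted p = 0.945) in Balb/c.

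Of the remaining effectors Slfn2, Rtp4 and Xaf1 rose in both strains, Ifi44l in Balb/c and Lgals3bp in C57BL/6. Slfn2, a schlafen protein that governs quiescence in lymphocytes and monocytes, was at 6.06, 6.62 and 6.68 in C57BL/6 sham and 7.76, 7.85 and 8.31 in C57BL/6 irradiated arrays. Sham Balb/c arrays were at 5.47, 4.63 and 5.34 and irradiated ones at 6.90, 7.22 and 6.99. Treatments did not overlap within a strain, and the difference was 1.52 ± 0.25 (adjusted p = 0.00888) in C57BL/6 and 1.89 ± 0.25 (adjusted p = 0.00227) in Balb/c. Each of these Slfn2 calls was kept when any 1 array was left out. Rtp4, a chaperone of receptors at the cell surface, read 8.99, 9.48 and 8.95 in C57BL/6 sham and 10.03, 10.11 and 10.50 in C57BL/6 irradiated arrays. Balb/c sham arrays read 8.09, 7.58 and 7.86 and Balb/c irradiated arrays 9.59, 10.26 and 9.61. Sham Balb/c arrays lay below all other groups. The difference was 1.08 ± 0.23 (adjusted p = 0.0294) in C57BL/6, lost without each of 3 arrays in turn (adjusted p as high as 0.120 when C57BL/6 irradiated replicate 3 was left out), and 1.97 ± 0.23 (adjusted p = 0.00136) in Balb/c.

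Xaf1, which counters the caspase inhibitor XIAP, had values of 8.45, 8.40 and 8.07 in C57BL/6 sham and 8.84, 8.81 and 9.15 in C57BL/6 irradiated arrays. The Balb/c arrays gave 7.73, 7.58 and 7.47 in sham and 8.65, 8.67 and 8.45 in irradiated arrays. The groups of a strain did not overlap and replicates differed little, so its small change was called at 0.62 ± 0.14 (adjusted p = 0.0400) in C57BL/6, lost without each of 10 arrays in turn (adjusted p as high as 0.152 when C57BL/6 irradiated replicate 3 was left out), and at 0.99 ± 0.14 (adjusted p = 0.00336) in Balb/c. Ifi44l, also named H28 after the minor histocompatibility antigen it encodes, was at 2.36, 2.26 and 2.25 in C57BL/6 sham and 2.55, 2.23 and 2.26 in C57BL/6 irradiated arrays, the bottom of the scale. Among Balb/c arrays the values were 7.67, 7.70 and 7.24 in sham and 9.84, 9.69 and 9.81 in irradiated mice. It was thus measured above the filter in Balb/c arrays alone, and there it rose by 2.24 ± 0.14 (adjusted p = 4.55e-05). A second probe set above the filter gave 2.74 in Balb/c and 3.01 between the strains after sham treatment. Lgals3bp, a secreted protein that binds galectins, read 4.82, 4.36 and 4.19 in C57BL/6 sham and 5.81, 6.20 and 5.88 in C57BL/6 irradiated arrays. Among Balb/c arrays the values were 3.97, 3.77 and 3.75 in sham and 5.38, 3.71 and 4.90 in irradiated mice, where replicate 2, the array with the largest 3' to 5' excess, lay below all sham arrays. Lgals3bp was called in C57BL/6 at 1.51 ± 0.34 (adjusted p = 0.0398), a call lost without each of 10 arrays in turn (adjusted p as high as 0.117 when C57BL/6 irradiated replicate 3 was left out), and was at 0.83 ± 0.34 (adjusted p = 0.178) in Balb/c.

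Several members did not pass in either strain. Parp9 and Parp14, members of the ADP-ribosyltransferase family, were at -0.05 ± 0.14 and 0.08 ± 0.14 in C57BL/6 and -0.04 ± 0.14 and 0.38 ± 0.14 in Balb/c. Ifi35 and Slfn8 were at 0.04 ± 0.11 and -0.05 ± 0.18 in C57BL/6 and 0.13 ± 0.11 and 0.15 ± 0.18 in Balb/c. On the probe sets used, the largest difference in either strain for these 4 genes and Samhd1 was 0.38. Other Samhd1 probe sets above the filter gave -0.02 and -0.23 in C57BL/6 and -0.14 and 0.59 in Balb/c, and were not tested. Lgals9, galectin-9, was at 0.87 ± 0.51 (adjusted p = 0.341) in C57BL/6 and -0.51 ± 0.51 (adjusted p = 0.599) in Balb/c, where replicate 2 of the irradiated arrays stood at 5.53 and the others at 8.21 and 7.50. Pml, which builds PML nuclear bodies, was dim and uncalled at 0.01 ± 0.37 and 0.61 ± 0.37. Sp100, a partner of PML, did not pass the filter and had group means of 2.93 to 3.04. Slfn5 also stayed under the filter, with values of 2.99, 2.41 and 2.99 in Balb/c sham and 3.98, 4.25 and 3.32 in Balb/c irradiated arrays, which did not overlap and were not tested.

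The difference between the strains in the size of the irradiation effect was called for 3 of the 27 members, against 0.0768% of all genes, 7 in number. Of the 3, 2 rose more in Balb/c (0.0439% of all genes) and 1 rose more in C57BL/6 (0.0329%). Leaving out the 6 members that passed the filter through a single treatment or a single strain, Oasl2 and Ifi44l among them, 1 of 21 was called, Ly6e. Ly6e rose more in Balb/c by 2.47 ± 0.31 (adjusted p = 0.0165), and Ifi44l by 2.19 ± 0.20 (adjusted p = 0.00365). Oasl2 rose more in C57BL/6, with a difference of -1.82 ± 0.24 (adjusted p = 0.0203). For Ifi44l the C57BL/6 arrays and for Oasl2 the Balb/c arrays lie at the dim end of the scale, so the size of these differences is rough. Ifi44l was called without any 1 array, whereas Ly6e was no longer called when any of 7 arrays was dropped (adjusted p as high as 0.0697 when Balb/c sham replicate 2 was left out) and Oasl2 without each of 9 (adjusted p as high as 0.0925 when Balb/c sham replicate 1 was left out). The Oasl2 call was also lost with the replicate number as a block (adjusted p = 0.0679), without the filter (adjusted p = 0.0926), with trend and robust variance (adjusted p = 0.162), with the 3' to 5' covariate (adjusted p = 0.174) and without both arrays that stand apart (adjusted p = 0.195). Without the filter Ly6e was not called either (adjusted p = 0.0926). For the other 24 tested members no difference between strains was called, and the intervals are wide, such as 0.14 to 2.17 for Ifit3 at 1.16 ± 0.46 and -0.65 to 2.10 for Ifit1 at 0.73 ± 0.62. The median over the 27 members was 0.37, with 22 of them on the side of a larger rise in Balb/c, and that over all genes was -0.02. These differences use the same arrays as the strain comparisons below.

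Without irradiation many of the interferon effector genes had a lower signal in Balb/c than in C57BL/6 cells. Whether sequence differences between the strains under the probes shaped the signal was not tested, as no Balb/c genome or probe sequences were used. That limit holds for every strain comparison, sham or irradiated, with Bst2, Ifi44l and Oasl2 among them. In sham mice 9 of the 27 members were called lower in Balb/c, against 5.24% of all genes, and 1 was called higher, against 5.22%. Of the 27, 24 had a lower mean in Balb/c, and the median difference was -0.69, with 0.04 over all genes. The difference was -3.0 ± 0.22 (adjusted p = 6.60e-06) for Ly6e, -2.03 ± 0.32 (adjusted p = 0.00210) for Ifit3 and -1.30 ± 0.23 (adjusted p = 0.00372) for Rtp4. Slfn2 was at -1.31 ± 0.25 (adjusted p = 0.00578), Oas1a at -1.11 ± 0.31 (adjusted p = 0.0480), Oasl2 at -0.91 ± 0.17 (adjusted p = 0.00572), Xaf1 at -0.71 ± 0.14 (adjusted p = 0.00815) and Bst2 at -3.72 ± 0.37 (adjusted p = 8.33e-05), each on the lower side in Balb/c. Parp14, at 10.30, 10.49 and 10.30 in C57BL/6 and 9.93, 9.85 and 9.71 in Balb/c sham arrays, differed by -0.54 ± 0.14 (adjusted p = 0.0341). Its irradiated arrays read 10.18, 10.50 and 10.65 in C57BL/6 and 10.11, 10.39 and 10.14 in Balb/c. Ifi44l was the gene called higher in Balb/c, at 5.25 ± 0.14 (adjusted p = 1.51e-09), from the bottom of the scale in C57BL/6. Oas1a was no longer called here when any of 9 arrays was dropped (adjusted p as high as 0.149 when C57BL/6 sham replicate 2 was left out) and Parp14 without each of 6 (adjusted p as high as 0.118 when Balb/c sham replicate 3 was left out). Oasl2, Bst2 and Pml passed the filter only through C57BL/6 arrays and Ifi44l only through Balb/c arrays. Among the 23 other members 7 were called lower in Balb/c and none higher. With values under 4 set to 4, the sham difference was -3.04 for Bst2, 3.54 for Ifi44l and 0.00 for Oasl2, which then lost its call. Markers of other cells also differed between sham strains, and their part in these differences was not tested. The neutrophil genes S100a8, at -3.19 ± 0.67 (adjusted p = 0.0107), and S100a9, at -2.47 ± 0.64 (adjusted p = 0.0330), were lower in Balb/c, and the summed neutrophil level was 8.81 to 11.18 in C57BL/6 and 6.70 to 7.28 in Balb/c sham arrays. The B cell gene Cd79b, the tested member of its list, was at -2.25 ± 0.23 (adjusted p = 8.67e-05), with a summed level of 7.77 to 8.10 in C57BL/6 and 5.74 to 6.09 in Balb/c, while Cd79a and Pax5 were under 2.5 on every array.

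**Figure D3:**
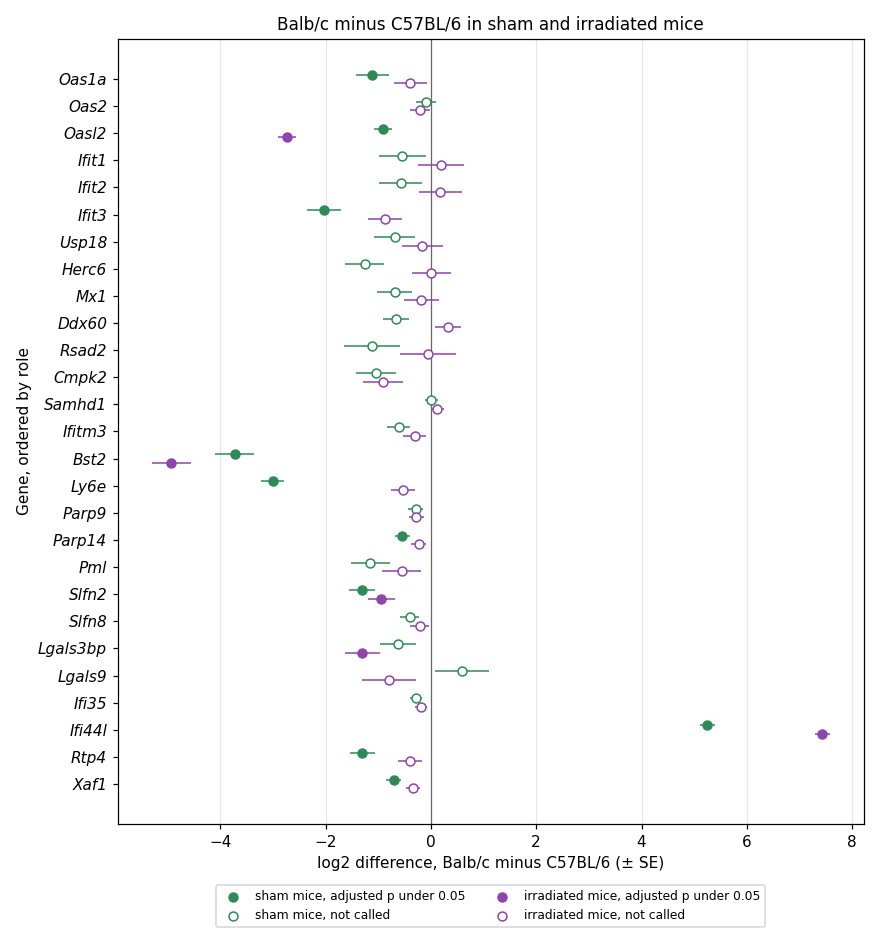
Log2 difference between Balb/c and C57BL/6 arrays (horizontal axis, points with SE bars) for the 27 tested members, in sham mice (green) and irradiated mice (purple), 3 against 3 arrays each. Filled points passed an adjusted p of 0.05. Most sham points lie left of 0, with a median of -0.69, and the irradiated points have a median of -0.28, with Bst2 and Oasl2 far left and Ifi44l far right.

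After irradiation fewer of the differences between strains were called. In irradiated mice 4 of 27 members were called lower in Balb/c, against 4.59% of all genes, and Ifi44l higher, against 4.38%. The median was -0.28, with 0.02 over all genes, and 21 of 27 members had a lower mean in Balb/c. Bst2 was at -4.93 ± 0.37 (adjusted p = 1.10e-05), Oasl2 at -2.74 ± 0.17 (adjusted p = 2.47e-06) and Ifi44l at 7.43 ± 0.14 (adjusted p = 1.27e-10). In each of these the lower group lay under the filter, so the sizes are rough, and with values under 4 set to 4 they were -4.19, -1.85 and 5.78. Without the 4 members that passed the filter through 1 strain, 2 of 23 were called lower, Slfn2 and Lgals3bp, and 0 higher. Slfn2, at -0.94 ± 0.25 (adjusted p = 0.0381), and Lgals3bp, at -1.30 ± 0.34 (adjusted p = 0.0390), lost their calls without each of 6 and 9 arrays in turn (adjusted p as high as 0.129 and 0.122), so that the count was 3 instead of 5 without any 1 of C57BL/6 irradiated replicates 1, 2 and 3 or Balb/c irradiated replicates 2 and 3. Ly6e, lower in sham Balb/c mice, was at -0.53 ± 0.22 (adjusted p = 0.172) after irradiation. Rtp4 was at -0.40 ± 0.23 (adjusted p = 0.343), Ifit3 at -0.87 ± 0.32 (adjusted p = 0.134) and Xaf1 at -0.34 ± 0.14 (adjusted p = 0.180). Whether the strain difference of a gene changed with irradiation is the same contrast as the one above, called for Ly6e, Ifi44l and Oasl2 and for no other member.

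The members' levels are seen array by array in the median distance of the 27 tested members from their C57BL/6 sham mean. It was 0.15, -0.01 and -0.12 in C57BL/6 sham arrays and 0.89, 0.96 and 1.36 in C57BL/6 irradiated arrays. The Balb/c medians were -0.50, -0.82 and -0.75 in sham arrays and 0.44, 0.36 and 0.47 in irradiated arrays. C57BL/6 irradiated replicate 3, the array without which most C57BL/6 calls are lost, stood highest. The 4 groups did not overlap, and the Balb/c irradiated arrays lay between the C57BL/6 groups. These medians include the 6 members that passed the filter through a single treatment or a single strain and so had to differ. In each Balb/c sham array 2 to 4 of the 27 members were above the C57BL/6 sham mean, and in each Balb/c irradiated array 19 were.

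**Figure D4:**
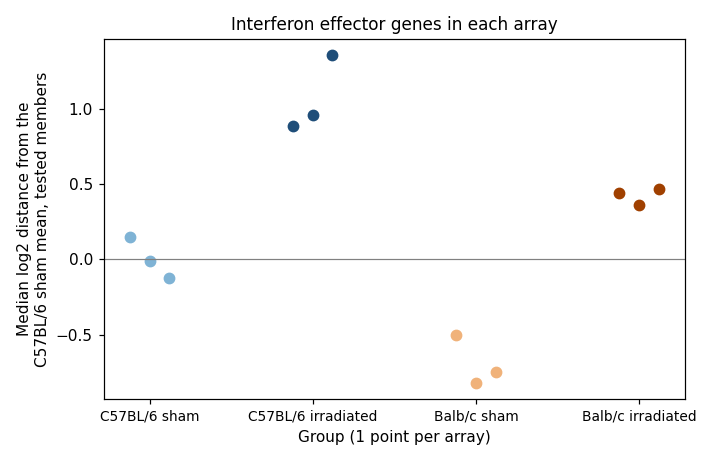
Median log2 distance of the 27 tested members from their mean in C57BL/6 sham arrays (vertical axis), 1 point per array in 4 groups of 3. The points run from -0.82 to -0.50 in Balb/c sham, -0.12 to 0.15 in C57BL/6 sham, 0.36 to 0.47 in Balb/c irradiated and 0.89 to 1.36 in C57BL/6 irradiated arrays. The 27 include 6 members that passed the filter through 1 treatment or 1 strain.

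The genes that make, sense and transmit type I interferon were mostly not called. Of 34 genes of the pathway, 33 were measured and 24 tested, with 0 called higher and 2 lower in C57BL/6 and 1 higher and 3 lower in Balb/c. Over all genes the shares called higher and lower were 2.21% and 1.46% in C57BL/6 and 3.26% and 2.89% in Balb/c. Ifnb1, Ifna1, Ifna2 and Ifna4, the interferon genes on the list, were under 2.5 on all 12 arrays, as were Stat2 and Socs1. The receptor chains did not pass, Ifnar1 at 0.32 ± 0.21 (adjusted p = 0.40) in C57BL/6 and 0.04 ± 0.21 (adjusted p = 0.933) in Balb/c, and Ifnar2 at 0.23 ± 0.13 (adjusted p = 0.316) and -0.27 ± 0.13 (adjusted p = 0.238). Irf9, a DNA-binding part of that complex, was at 0.22 ± 0.18 (adjusted p = 0.494) in C57BL/6 and 0.42 ± 0.18 (adjusted p = 0.186) in Balb/c. Irf5, a regulator of inflammatory cytokines, fell by 0.71 ± 0.16 (adjusted p = 0.0412) in C57BL/6, a call lost without each of 8 arrays in turn (adjusted p as high as 0.153), and by 1.13 ± 0.16 (adjusted p = 0.00354) in Balb/c. Socs3, an inhibitor of cytokine receptors, was at -0.90 ± 0.21 (adjusted p = 0.0464) in C57BL/6 and -0.82 ± 0.21 (adjusted p = 0.0493) in Balb/c, each lost without any of 10 arrays (adjusted p as high as 0.173 and 0.153, without irradiated replicate 3 of that strain). Irf8, a lineage factor of microglia, fell in Balb/c by 0.90 ± 0.16 (adjusted p = 0.0102), and was at -0.39 ± 0.16 in C57BL/6 (adjusted p = 0.189). Tlr3, a sensor of double-stranded RNA, rose in Balb/c by 0.58 ± 0.12 (adjusted p = 0.0190), a call lost without each of 4 arrays in turn (adjusted p as high as 0.0743 when Balb/c sham replicate 2 was left out).

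Markers of other cells also moved with irradiation, and their part in the results above was not tested. Of the monocyte markers, 9 of 11 measured and 8 tested, 4 were called higher in C57BL/6 and 3 in Balb/c, where 2.21% and 3.26% of all genes were, the shares for the lists below too. Their summed log2 level was 10.51 to 11.61 in C57BL/6 sham and 12.11 to 12.34 in C57BL/6 irradiated arrays, and 10.74 to 10.92 and 11.81 to 12.04 in Balb/c, with no overlap between treatments. Markers of border-associated macrophages, 11 measured and 10 tested, had 0 called in C57BL/6, at 13.69 to 14.67 in sham and 14.57 to 14.85 in irradiated arrays. In Balb/c 3 of the 10 were called higher, at 13.39 to 13.51 and 13.86 to 14.25. Endothelial and pericyte markers, 10 measured and 8 tested, had 0 called in C57BL/6 and 2 higher in Balb/c, with Pecam1 under 2.5 on every array. Their summed level was 12.23 to 12.48 in sham and 12.54 to 13.01 in irradiated C57BL/6 arrays. In Balb/c it was 12.24 to 13.19 and 13.56 to 13.88, and treatments did not overlap in either strain. Astrocyte markers, 9 of 9 tested, had 0 called in C57BL/6 and 3 higher in Balb/c, and their summed level did not overlap between treatments in either strain. Neutrophil markers, 6 measured and 4 tested, had 0 called in C57BL/6 and 2 higher in Balb/c, where the level was 6.70 to 7.28 in sham and 9.73 to 11.78 in irradiated arrays, and Mmp8 was under 2.5 on every array. Of the T and NK cell markers, 9 measured, 1 was tested, the granzyme gene Gzma, with means of 6.04 in sham and 8.01 in irradiated C57BL/6 arrays, and of 2.43 and 5.38 in those of Balb/c. Its difference was 1.97 ± 1.09 (adjusted p = 0.319) in C57BL/6 and 2.95 ± 1.09 (adjusted p = 0.137) in Balb/c, neither called. The summed level of this list was 6.21 to 7.32 in sham and 7.84 to 8.72 in irradiated C57BL/6 arrays, without overlap, and 5.43 to 5.46 and 5.45 to 8.35 in Balb/c. Gzmb, under the filter, had means of 2.75 in irradiated C57BL/6 arrays and 2.23 in the other groups. The T cell receptor genes Cd3d, Cd3e and Cd3g were under 2.5 on every array, as were Cd4, Nkg7 and Ncr1. For plasmacytoid dendritic cells, the main interferon producers of blood, 7 markers were measured and 3 tested. Of these, 0 were called in C57BL/6 and 1, Irf8, was called lower in Balb/c, against 2.89% of all genes. Tcf4, Irf8 and Siglech, the tested ones, had group means of 11.84 to 12.75, and Siglech is on the microglial list as well. Klk1, Ccr9 and Cox6a2 had group means of 2.47 to 3.67, and Ly6d was under 2.5 on every array. In such a sort, more cells of a type and more RNA per cell cannot be told apart.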

How the data were processed

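RNA of sorted hippocampal CD11b+ cells was hybridised to Affymetrix arrays, 12 mice in 4 groups of 3. The deposited file holds log2 values for 45101 probe sets. GCRMA is the method that the submitters' processing notes name, and its version is not given in the sources used here. Sorted values were the same on all arrays within 0.001. No scanner files or probe sequences were used here. The platform annotation pairs 34945 probe sets with 1 symbol, leaves 9160 without and gives 932 more than 1, which were not used, beside 64 controls. Symbols of 34741 were updated through the Entrez identifier with the RefSeq table of GRCm38.p6. Where a gene had more than 1 probe set, the brightest on average was taken, and genes above 5 on at least 3 arrays were tested, 9120 of 18193. Limma 3.58.1 in R 4.3.3 fitted 1 mean per group, with 8 residual degrees of freedom and Benjamini-Hochberg adjustment over all tested genes. The fit was tested on simulated data.

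The members and the lists were chosen with earlier results of these data known. Arrays are described one by one for up to 12 members called with a log2 difference of at least 1 in either strain, taken by the largest mean change, and for every member called in the interaction or between strains; from the pathway list those called after irradiation are named, with the interferon genes, the receptor chains and Irf9 added after their values were seen. Promoters shown are those of members called in both strains, up to 4, with the core present. The alternatives changed the filter (none, or at 7), the scaling (quantile, or centred arrays), the floor (4), the probe set rule (their mean), the variance prior (trend and robust) and the arrays fitted (only those compared); others added a block for replicate number, added the 3' to 5' excess as a covariate, or left arrays out. Replicate numbers are not said to pair mice. In the comparison of irradiated strains, same-numbered arrays deviated together (correlations of 0.22, 0.45 and 0.32), and the block changed no member's call there.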

Additional observations from a re-analysis of the deposited data

Results flagged for a closer look

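The effect of irradiation differed between the strains by a test of the difference itself for 3 members. For Ly6e the log2 change after irradiation was larger in Balb/c than in C57BL/6 by 2.47 ± 0.31 (limma, adjusted p = 0.0165), with Balb/c sham arrays at 8.08 to 8.33 and all other arrays at 10.61 or above. Ifi44l had a difference of 2.19 ± 0.20 in the same direction (adjusted p = 0.00365), with all 6 C57BL/6 arrays between 2.23 and 2.55. Oasl2 differed the other way, at -1.82 ± 0.24 (adjusted p = 0.0203), with Balb/c arrays at 2.23 or 3.11. The Oasl2 call was lost in 9 of the 12 fits that each dropped 1 array and under 5 other alternatives, with adjusted p from 0.0679 to 0.195 under the latter, and the Ly6e call in 7 of the 12 and without the filter. All irradiated arrays lay above all sham arrays in Balb/c for each of the 3 genes, as they did for 12.8% of all genes. The 3 genes were picked by calls on these same arrays, so this separation adds no further support. For Oasl2 it was between 2.23 in sham and 3.11 in irradiated arrays, and its Balb/c difference was 0.00 with dim values set to the floor.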

How the results depend on the processing

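The direction of all 46 called member differences was kept, or the difference was 0 (Oasl2 in Balb/c and between sham strains, with a floor at 4), under every alternative that tested the gene. Of 1043 values over these alternatives, 197 lost the call and 846 kept it. These include fits that dropped an array outside the comparison. A gene that an alternative left untested gave no value and is not among the 197, as with Oasl2, Mx1 and Lgals3bp under the filter at 7. Without a filter on dim probe sets the calls were 2 of 34 members in C57BL/6 (main 12), 1 for the difference between strains in the effect (main 3) and 3 between irradiated strains (main 5), and the C57BL/6 median was 0.58 (main 1.08). With a filter at 7, the Balb/c median was 1.63 (main 1.03) over 22 members, and 3 were called between irradiated strains. The fit of the compared groups alone called 6 in C57BL/6. With the 3' to 5' excess as a covariate 10 were called in Balb/c (main 16) and 3 between irradiated strains, and the median difference in effect was 0.19 (main 0.37). Without both arrays that stand apart, 3 were called in C57BL/6 and 3 between irradiated strains, and the Balb/c median was 1.31. The longer core was in 22.2% of member promoters. The filters changed both the number of genes tested and the members in the set. The cause of the changes under any alternative was not tested.

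Leaving out each array in turn gave 2 to 14 called in C57BL/6 (median 0.91 to 1.17), 12 to 17 in Balb/c (0.97 to 1.33), 1 to 3 for the difference in effect (0.29 to 0.54), 8 to 11 between sham strains (-0.78 to -0.57) and 3 to 5 between irradiated strains (-0.39 to -0.21). With the replicate number as a block the calls were 10 in C57BL/6, 15 in Balb/c, 2 for the difference in effect, 10 between sham strains and 5 between irradiated strains. Within a strain, same-numbered arrays had correlations of -0.02 to 0.28, so they are not shown to be pairs. Over all 18 same-numbered pairs of arrays the correlations ran from -0.05 to 0.45, with a median of 0.10. The value was 0.42 for C57BL/6 irradiated and Balb/c sham replicates 3. Differently numbered arrays of different groups ran from -0.39 to 0.20. Whether arrays of 1 replicate number were processed together was not tested. With 3 arrays a group and many members near the bottom of the scale, small differences of dim genes could not be resolved.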
